A study of Drosophila melanogaster with 21 samples.

Results

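Male wing discs that lacked both roX RNAs were compared with discs heterozygous for msl-2 or for mle. Libraries were chosen by their titles: the 3 of the roX1 roX2 genotype, the 3 of the heterozygous msl-2 genotype and the 2 of the heterozygous mle genotype, which makes 8 of the 21 libraries of the study. The mutants carried the roX1 allele SMC17A with a deletion of roX2, and the labels describe them as double null. The msl-2 controls carried the null allele that their titles give as msl2_227 and the mle controls the one given as mle9, each over CyO-GFP, a balancer form of the second chromosome that is marked with green fluorescent protein. All 5 controls therefore shared that balancer, whereas the labels give the mutants none and no heterozygous siblings of their own. Heterozygous msl-1 discs were not used as controls because their X level was already known to differ. A gene was counted as changed only where it differed in the same direction from both control stocks. All larvae were males of the third instar reared at 25 °C, polyadenylated RNA of dissected discs was sequenced, and counts of reads per gene were analysed. The labels do not say whether replicates were separate crosses or how many discs made up a library, so p values measure the spread between these libraries, which may be technical.

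Male flies have a single X and raise its transcription with the MSL complex, which consists of the proteins MSL1, MSL2, MSL3, the RNA helicase MLE and the acetyltransferase MOF together with the non-coding RNAs roX1 and roX2. Both roX genes lie on the X and their RNAs act redundantly, so that loss of either one alone is tolerated. The complex spreads along active X genes and marks their chromatin by acetylation of histone H4. The wing disc is the epithelial sac of the larva that gives rise to the adult wing and part of the thorax.

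Total counts ran from 1972761 to 4131600 in mutants, 2690455 to 3451256 in heterozygous msl-2 discs and 3013611 to 3774192 in heterozygous mle discs. Of 8 genes chosen to mark the wing disc, 6 were found in the table, and their summed level was 971 to 1275 CPM (counts scaled to library size, per 1e6 reads) in mutants against 1211 to 1491 in controls, with overlapping groups. Mutant replicate 2 stood apart in gut enzymes: the protease gene Jon65Aiii was at 2740 CPM and alphaTry at 321 CPM there, against at most 1.36 CPM of either gene in each of the other 7 libraries. Without that replicate, 205 of the 233 genes called higher and 264 of the 320 called lower in the comparison that follows were called again. Larval muscle markers, all 9 of 9 detected, summed to 295 to 456 CPM in mutants, 185 to 210 in heterozygous msl-2 and 221 to 383 in heterozygous mle discs, and fat body and hemocyte markers overlapped between the groups. Their part in the results was not tested. In bulk discs, fewer cells of a type and less RNA per cell cannot be told apart.

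The mutated genes were checked first. roX1 (X, 3857230 to 3862697 in dm6, minus strand) was at 2374, 2489 and 2526 CPM in heterozygous msl-2 discs, at 3356 and 3572 in heterozygous mle discs and at 34.6, 41.6 and 67.0 in the mutants. The groups were far apart, and some roX1 reads were present in every mutant library. The log2 fold change was -5.70 ± 0.25 (SE; edgeR quasi-likelihood test, adjusted p = 7.57e-08) against heterozygous msl-2 and -6.19 ± 0.26 (adjusted p = 9.58e-08) against heterozygous mle discs. roX1 overlaps the gene ec on the opposite strand, and the strand setting of the counting is not given in the sources used here. roX2 (X, 11579065 to 11580432, plus strand) was at 253 to 296 CPM in heterozygous msl-2 and at 248 and 361 CPM in heterozygous mle discs. No roX2 read was counted in the 3 mutant libraries together, which places roX2 at least 761-fold lower than the lower control group at a floor of 3 counts over the mutant group.

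The protein genes of the complex were not called against both stocks. msl-1, the scaffold, was at 66.7 to 77.5 CPM in mutants, 73.0 to 102 CPM in heterozygous msl-2 and 53.4 to 62.2 CPM in heterozygous mle discs, with log2 fold changes of -0.21 ± 0.16 (adjusted p = 0.411) and 0.35 ± 0.18 (adjusted p = 0.286). msl-2, which encodes the male-specific subunit, was at 66.1 to 89.3 CPM in mutants and 86.2 to 103 in controls, with log2 fold changes of -0.28 ± 0.15 (adjusted p = 0.239) and -0.33 ± 0.17 (adjusted p = 0.272). Each control stock carries 1 mutant copy of its own gene, so msl-2 and mle are each compared in part with a stock heterozygous for them. mof, the X-linked acetyltransferase gene, was at 35.6, 46.7 and 43.8 CPM in mutants, at 59.98, 60.9 and 73.0 in heterozygous msl-2 and at 46.3 and 46.9 in heterozygous mle discs. It was called against the first stock only (-0.63 ± 0.16, adjusted p = 0.024, and -0.16 ± 0.18, adjusted p = 0.67), and its mutant levels overlapped those of the second. msl-3 and mle had log2 fold changes between -0.25 and 0.44 and were not called.

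**Figure D1:**
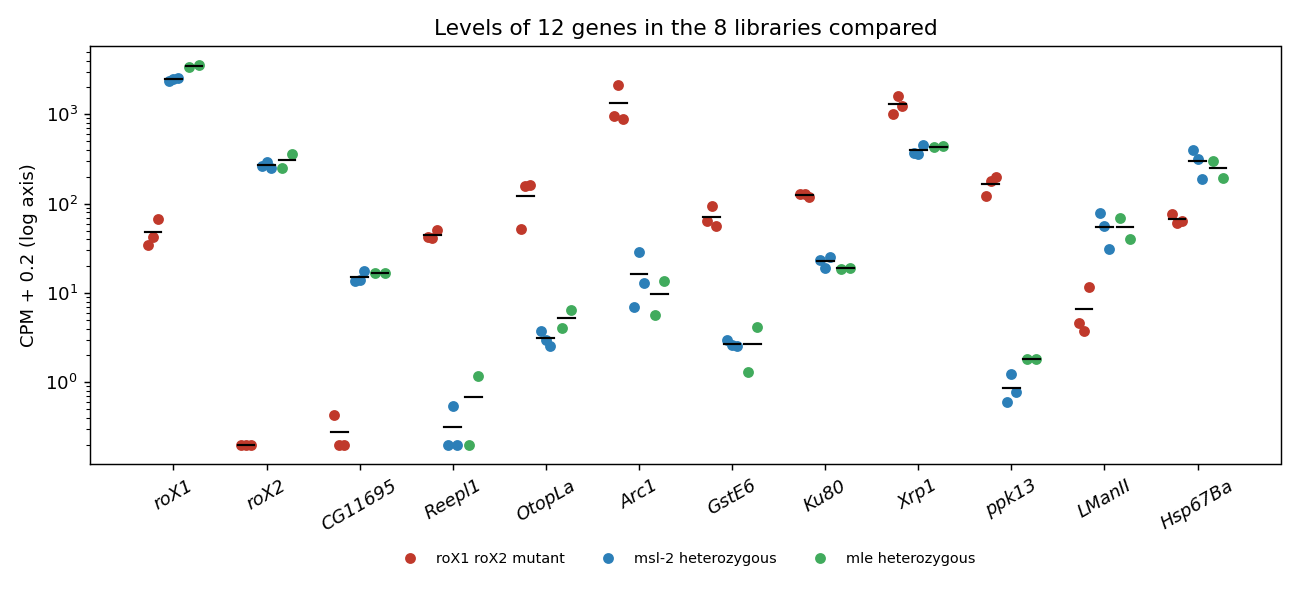
Levels of 12 genes in the 8 libraries on a logarithmic axis of CPM plus 0.2; each point is a library and each bar a group mean (3 roX1 roX2 mutant, 3 msl-2 heterozygous and 2 mle heterozygous libraries). In each of the 12 genes the mutant points lie entirely above or entirely below the control points, with roX2 at 0 in all 3 mutants. The rule by which most of these genes were named required such separation.

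Next to roX2, other genes changed as well. CG11695, whose end lies 259 bases from roX2 (X, 11576883 to 11578806), was at 13.5 to 17.4 CPM in the 5 controls, and a single read of it was counted in the 3 mutants together. The ratio to the lower control group was 126 with a counting interval of 22.6 to 4978. Farther out, Reepl1 (X, 11572707 to 11573640), a gene of the REEP family of membrane proteins, was at 42.6, 41.1 and 50.2 CPM in the mutants and at most 0.983 CPM in the controls (log2 fold changes 8.17 ± 0.60 and 6.50 ± 0.59, adjusted p = 4.73e-06 and 5.16e-05). Its neighbour Kmn1, which encodes a kinetochore protein, was at 57.1 to 76.8 CPM in mutants and 15.3 to 24.7 CPM in controls (1.66 ± 0.20 and 1.94 ± 0.23, adjusted p = 0.000282 and 0.000554). Between Reepl1 and CG11695, CG11696 was not called (-0.47 and -0.32, adjusted p = 0.0868 and 0.346). nod, the chromokinesin gene 340 bases beyond roX2, was at 29.2 to 40.7 CPM in mutants and 50.7 to 80.6 CPM in controls, and passed against heterozygous msl-2 only (adjusted p = 0.00329 and 0.0511). Within 50 kb of roX1, no gene other than roX1 was called against both stocks. In the libraries of the other mutants, CG11695 stayed between 12.3 and 20.5 CPM and Reepl1 between 0 and 1.47 CPM.

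The X as a whole was lower in the mutants. For each library, the median over genes of chromosomes 2 and 3 was subtracted from the median over X genes on the log2 scale, relative to the mean of the 8 libraries. It was -0.306, -0.204 and -0.274 in the mutants, 0.113, 0.128 and 0.164 in heterozygous msl-2 and 0.186 and 0.202 in heterozygous mle discs. All mutants lay below all controls, and the gap between the groups exceeded the spread within each. The difference was -0.396 against heterozygous msl-2 and -0.455 against heterozygous mle discs, each with an exact two-sided permutation p = 0.10, the smallest that such group sizes allow. Over the 5 controls together the difference was -0.420 (p = 0.0179, the smallest of 56 splits in an exact permutation test), a test that pools 2 stocks. The control stocks were chosen with knowledge of their X level, so this value depends on that choice. Against heterozygous msl-1 replicates 1 and 3 alone, at -0.063 and -0.070, the difference was -0.195 (p = 0.10, the smallest of 10 splits in an exact permutation test). Heterozygous msl-1 replicate 2 lay at -0.569, and with all 3 heterozygous msl-1 libraries added to the controls the difference was -0.273 (exact permutation p = 0.115).

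**Figure D2:**
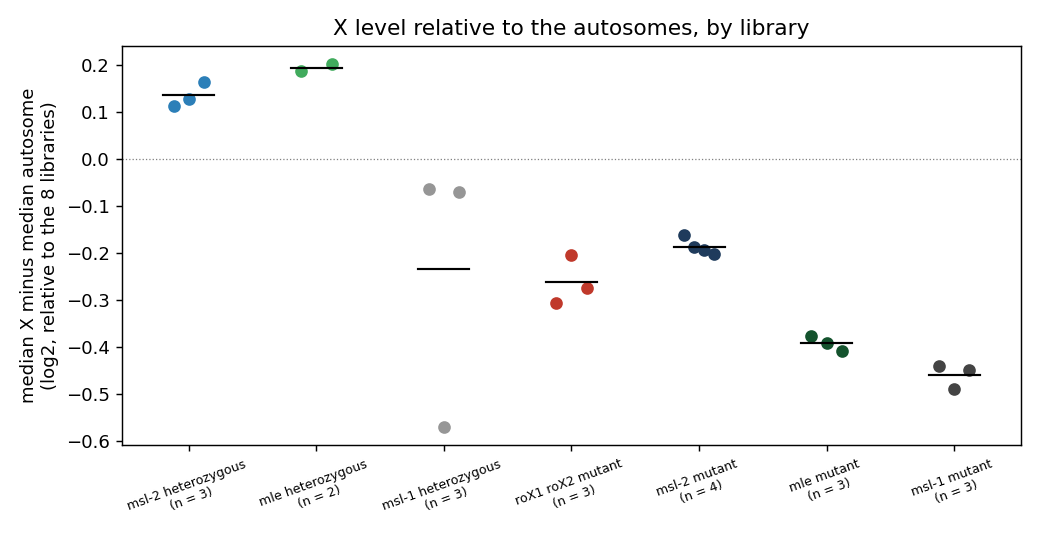
Median X level minus median autosome level (log2, relative to the mean of the 8 compared libraries) for all 21 libraries; each point is a library and each bar a group mean. The 3 roX1 roX2 mutants sit between -0.306 and -0.204, below all msl-2 and mle heterozygous libraries.

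Gene by gene, the median X gene was at 74.1% of its level in heterozygous msl-2 and 72.9% of its level in heterozygous mle discs, relative to the autosomal median. Of 1499 X genes tested, 75.3% and 83.8% lay below the autosomal median, and 153 and 166 were more than halved on this scale. Along the chromosome, 22 of 22 segments of 1 Mb with at least 20 tested genes had medians below 0 against either stock. These ran from -0.58 to -0.16 against heterozygous msl-2 and from -0.66 to -0.30 against heterozygous mle discs (log2). The 2 segments at the centromere end, with 16 genes each, were not counted: their medians were -0.19 and -0.11 against heterozygous msl-2 and -0.32 and 0.09 against heterozygous mle discs, and none of their genes was called lower. The 2 control stocks share the same mutant libraries in these values. By level per length of transcript, the X shift against heterozygous msl-2 was -0.46, -0.45 and -0.46 in the lowest, middle and highest class. Against heterozygous mle discs it was -0.20 in the lowest class and -0.54 and -0.55 in the others, so the lowest class was the one where the stocks gave unlike values.

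**Figure D3:**
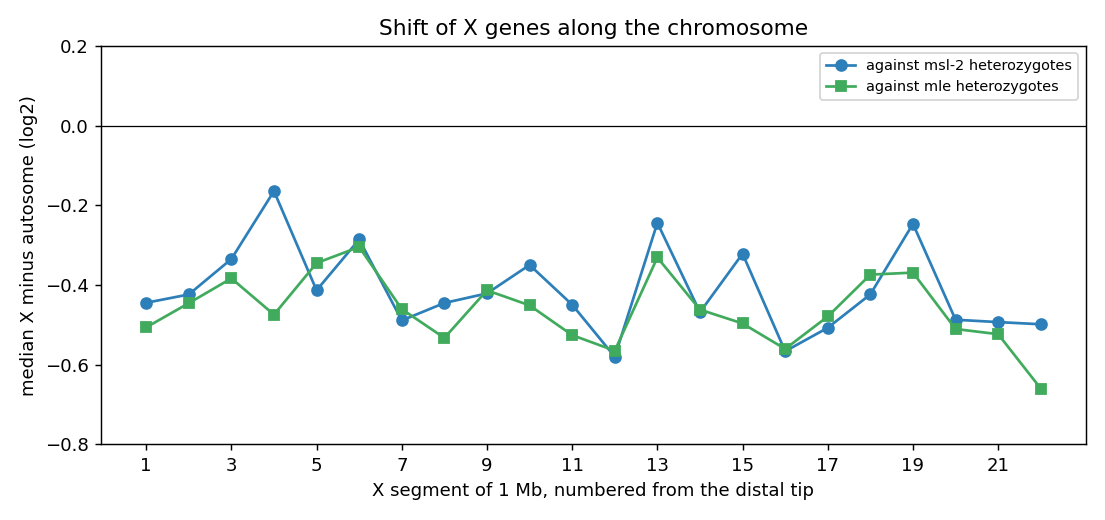
Log2 fold change (median over X genes less the autosomal median) in the 22 segments of 1 Mb with at least 20 tested genes, numbered from the distal tip, against msl-2 heterozygotes (circles) and mle heterozygotes (squares). All points lie below 0, between -0.66 and -0.16.

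Of 9560 genes tested, 233 were higher in the mutants than in both stocks (2.44%) and 320 were lower (3.35%), both counted at an adjusted p under 0.05 in the edgeR quasi-likelihood test. Against heterozygous msl-2 discs 1290 genes were called (13.5%), of which 519 were higher (5.43%) and 771 lower (8.06%). Against heterozygous mle discs 824 were called (8.62%), 345 of them higher (3.61%) and 479 lower (5.01%). Between the 2 control stocks 58 genes differed (0.607%). Of the 233, 231 had all 3 mutants above all 5 controls, a pattern seen in 7.26% of all genes, and of the 320, 317 had all mutants below, a pattern seen in 12.1%. The size of the change was unequal: 164 of the 233 higher genes were more than doubled against both stocks, whereas 55 of the 217 X genes called lower and 46 of the 93 autosomal ones were more than halved. The count was smaller when heterozygous mle replicate 1 was left out. Without it, which leaves that group 1 library assumed to vary like the others, 94 genes were higher and 60 lower. Of the 54 genes named by rule and called, 31 were called without it. Among those lost were Arc1, OtopLa, CG32625, CG1889, CR44316, LManII, CR40190, Marf1, Snap25, Irbp18, Hsc70-3, CycD, rb and bab2. In a fit of 20 libraries, 283 genes were higher and 516 lower than both stocks. With heterozygous msl-1 replicates 1 and 3 required as a further control in that fit, 195 were higher and 157 lower.

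**Figure D4:**
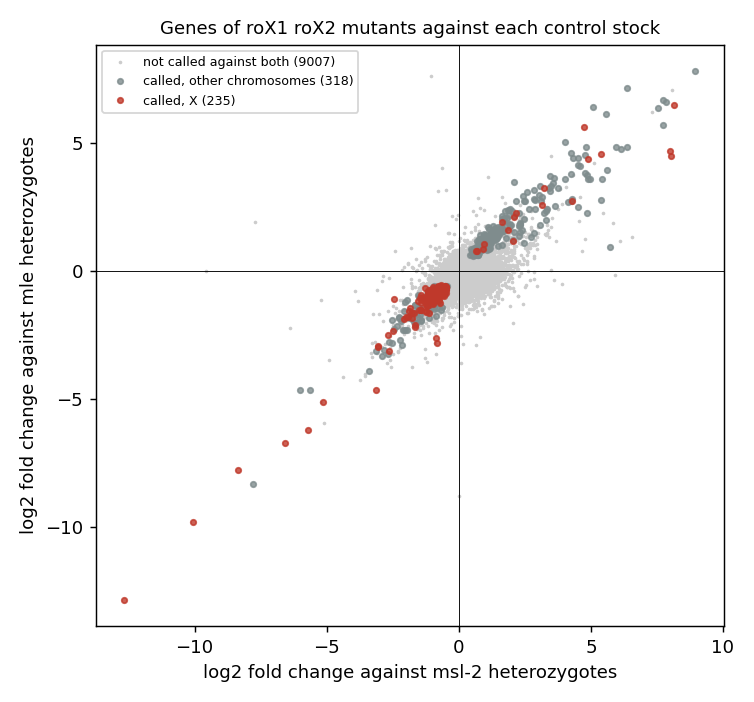
Log2 fold change of roX1 roX2 mutants against msl-2 heterozygotes (horizontal) and against mle heterozygotes (vertical) for the 9560 genes tested; the 235 X genes and the 318 others called against both stocks are marked. The marked X genes lie mostly a short distance below 0 on both axes, and the marked genes of other chromosomes lie mostly above 0. The axes share the mutant libraries.

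The genes called lower were mainly X-linked. Of 1499 X genes 217 were lower (14.5%) and 18 were higher, so the X held 67.8% of all lower genes and 15.7% of the genes tested. Of 7829 genes on chromosomes 2, 3 and 4, 93 were lower and 207 higher. The second chromosome, the one balanced in the controls, had 167 of 3571 genes called (4.68%) and the third 131 of 4168 (3.14%). Since controls carried the balancer, it and the roX genotype cannot be told apart from these 8 libraries alone. The titles of the msl-2, mle and msl-1 mutants name no balancer either. In these mutants CG11695, Reepl1 and mIF3 stood near their levels in the 5 controls. They are among the genes called against every other group, given below, so this follows from how they were picked. By contrast, w was low and Arc1 high in all of these mutants. Reepl1 reached 10.4 CPM in heterozygous msl-1 replicate 2. The part of the balancer was not tested in any of these genes. Among X genes in the highest class of expression 107 of 380 were lower (28.2%), against 86 of 565 in the middle and 24 of 554 in the lowest class. At this depth a 2-fold fall was recovered for 29.2% and a 4-fold fall for 73.9% of genes changed in simulated data of 9171 genes, so X genes that were not called cannot be counted as unaltered.

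Among the X genes that fell most were 2 at one locus. sordd2 (X, 15796908 to 15799162) was at 36.4 to 47.8 CPM in the 5 controls and had no read in the mutants, at least 104-fold lower at the same floor. The adjacent non-coding gene CR44383 was at 8.85 to 17.1 CPM in controls and had no read either, at least 25.5-fold lower. Both genes also had no read in any library of the msl-1 stock, mutant or heterozygous. Most X genes called lower differed by far less. Sxl, the switch gene of sex determination, which represses msl-2 in females, was at 99.3 to 120.0 CPM in mutants and 192 to 247 CPM in controls, with no overlap (-0.87 ± 0.14 and -1.07 ± 0.15, adjusted p = 0.00164 and 0.00134). Other X genes that fell by about as much were COX6B, a subunit of cytochrome c oxidase, CycD, the cyclin D gene, rb, a subunit of the AP-3 trafficking complex, and Hsc70-3, the chaperone of the endoplasmic reticulum. Their log2 fold changes lay between -1.28 and -0.78. obst-A, a chitin-binding protein gene, was at 47.3, 47.7 and 48.3 CPM in mutants and 171 to 219 CPM in controls, a larger fall with very small spread (-2.08 ± 0.15 and -1.84 ± 0.16, adjusted p = 3.56e-06 and 3.26e-05).

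The 5 X genes that rose most were Reepl1, CG32625, Erk7, OtopLa and CG1889. OtopLa, a proton channel of the otopetrin family, was at 51.5, 156 and 161 CPM in mutants and 2.35 to 6.23 CPM in controls (5.39 ± 0.54 and 4.61 ± 0.59, adjusted p = 0.000616 and 0.00327). Erk7, an atypical MAP kinase gene, was at 21.3, 57.7 and 40.6 CPM in mutants and at most 1.64 CPM in controls (7.99 ± 0.67 and 4.69 ± 0.54, adjusted p = 1.84e-05 and 0.000442). In both genes all 3 mutants were high and mutant replicate 2 was the lowest of them. CG32625 was at 20.5 to 90.8 CPM in mutants against at most 3.53 CPM in controls. It was also high in the other mutants, at 126 to 140.0 CPM (msl-1), 18.1 to 88.9 CPM (mle) and 9.53 to 64.3 CPM (msl-2). CG1889 reached 3.28 to 17.3 CPM and overlaps another gene on the opposite strand.

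On the autosomes, Arc1, which encodes a capsid-like protein of retrotransposon origin, was at 963, 2122 and 896 CPM in mutants and at 5.45 to 28.7 CPM in controls (6.36 ± 0.71 and 7.16 ± 0.90, adjusted p = 0.00314 and 0.00779). In the other mutants it was at 114.7 to 418 CPM (msl-2), 1580 to 2351 CPM (mle) and 5799 to 8555 CPM (msl-1). ppk13, a member of the pickpocket family of sodium channels, was at 122, 178 and 201 CPM in mutants and at 0.397 to 1.64 CPM in controls (7.85 ± 0.33 and 6.63 ± 0.34, adjusted p = 7.57e-08 and 3.30e-07). Its neighbour CG33509 was at 63.9 to 172 CPM against at most 1.31 CPM. Both were also high in msl-1 mutants, at 298 to 307 and 169 to 253 CPM, and low in msl-2 and mle mutants, at 3.62 CPM or less. In heterozygous msl-1 discs ppk13 was at 11.3 to 35.1 CPM and CG33509 at 7.35 to 32.7 CPM, above the controls used here. CG31601 was at 170.4, 517 and 399.6 CPM in mutants and at 0.794 to 5.18 CPM in controls, and the non-coding CR44316 at 25.8 to 134 CPM against at most 0.545 CPM. These were low in all other mutants, at 4.42 CPM or less.

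Of autosomal genes that fell, LManII, a lysosomal alpha-mannosidase gene, was at 4.45, 3.51 and 11.4 CPM in mutants and 30.9 to 77.9 CPM in controls (-3.12 ± 0.50 and -3.12 ± 0.53, adjusted p = 0.00538 and 0.0106). Spn42De, a serpin gene, was at 1.00 to 2.28 CPM in mutants and 8.45 to 16.4 CPM in controls. In both, the groups did not overlap, which the rule for naming them required. The non-coding CR40190 and the gene CG31683 were at 3.27 to 12.7 CPM in controls, and a single read of each was counted in the mutants. Their ratios to the lower control group were 33.7 (counting interval 6.05 to 1331) and 33.2 (5.97 to 1313).

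Genes that respond to DNA damage and stress were among those that rose. In the DNA damage list 6 of 21 tested members were higher and none lower, beside 2.44% and 3.35% over all genes, with a median log2 fold change of 0.25 against -0.01 over all genes. This list and those that follow were chosen with earlier results of these data known. A share above that of all genes may therefore be built in. Ku80, which forms with Irbp the DNA end-binding heterodimer of non-homologous end joining, was at 128, 129 and 118 CPM in mutants, 23.0, 19.0 and 25.3 CPM in heterozygous msl-2 and 18.5 and 19.0 CPM in heterozygous mle discs. Irbp was at 81.2, 78.8 and 82.1 CPM in mutants and at 18.7 to 28.8 CPM in controls. The mutants were uniform in both genes and clear of every control (Ku80 2.47 ± 0.16 and 2.73 ± 0.19, adjusted p = 1.42e-06 and 5.65e-06; Irbp 1.82 ± 0.18 and 2.10 ± 0.22, adjusted p = 8.09e-05 and 0.000146). mre11 and rad50 encode parts of the complex that processes broken ends. mre11 was at 169.7, 219 and 209.8 CPM in mutants and 54.5 to 78.6 CPM in controls, and rad50 at 156 to 214 CPM against 43.9 to 80.0 CPM, again without overlap (adjusted p at most 0.00315 against either stock). RnrL, a ribonucleotide reductase subunit, and PolZ1, of translesion polymerase zeta, were the other members called.

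In the list of JNK signalling and regeneration 5 of 30 members were higher (2.44% of all genes) and none lower (median 0.25). Xrp1, a transcription factor of cell competition and the DNA damage response, was at 1021, 1618 and 1232 CPM in mutants and at 363 to 448 CPM in controls (1.71 ± 0.18 and 1.57 ± 0.21, adjusted p = 0.000116 and 0.000861). Its dimer partner Irbp18 was at 155, 193 and 94.4 CPM in mutants and at 40.1 to 53.6 CPM in controls (1.61 ± 0.23 and 1.72 ± 0.27, adjusted p = 0.00104 and 0.00294), and overlaps CG33947 on the opposite strand. Gadd45, a stress-response gene, was at 95.3 to 136 CPM in mutants against 11.2 to 28.2 CPM in controls, and Socs36E, an inhibitor and target of JAK/STAT signalling, at 259.6 to 413 CPM against 106 to 154 CPM. Ilp8, the relaxin-like signal of damaged discs, was the other member called. In the apoptosis list none of 13 members was called (median -0.09).

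In the detoxification list 7 of 21 tested members were higher (2.44% of all genes), none was lower, and 14 did not pass; the median was 0.82. Cyp6d2, a cytochrome P450 gene, was at 187, 349 and 151 CPM in mutants and 2.08 to 11.1 CPM in controls (6.15 ± 0.46 and 4.80 ± 0.48, adjusted p = 0.000104 and 0.000816), and overlaps nsr on the opposite strand. GstE6, a glutathione transferase gene, was at 64.6, 93.8 and 56.6 CPM in mutants and 1.09 to 3.93 CPM in controls (4.81 ± 0.35 and 4.86 ± 0.41, adjusted p = 4.73e-06 and 3.26e-05). GstE1, GstE5, GstE8, GstE10 and GstD3 were the others. Members of the GstE and GstD clusters are close copies whose reads could be shared, and GstE1 overlaps GstE10, so the count of separate genes is uncertain. In heat shock and unfolded protein response, PEK, the endoplasmic reticulum stress kinase, was higher, and Hsp67Ba and Hsc70-3 were lower, of 20. Over all genes 2.44% were higher and 3.35% lower, and the list's median was -0.02 against -0.01 over all genes. Hsc70-3 lies on the X, where 14.5% of genes were lower. Hsp67Ba, a small heat shock protein gene that overlaps CR43481, was at 61.2 to 77.3 CPM in mutants and 188 to 394 CPM in controls, without overlap (-2.14 ± 0.28 and -1.87 ± 0.29, adjusted p = 0.000927 and 0.00452).

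In the wing patterning list 2 of 42 members were lower and none higher, close to the 3.35% of all genes called lower, and the median was -0.34. al, a homeobox gene of the distal appendage, was at 21.5, 15.1 and 21.4 CPM in mutants, 35.0 to 36.0 in heterozygous msl-2 and 50.2 and 80.2 in heterozygous mle discs (-0.86 ± 0.22 and -1.74 ± 0.23, adjusted p = 0.0234 and 0.000897). All mutants were below all controls, and the control stocks themselves lay apart. nkd, an antagonist of Wingless signalling, was at 147 to 183 CPM in mutants and 222 to 368 CPM in controls (adjusted p = 0.0381 and 0.0104). In the leg and haltere list 2 of 13 were lower (3.35% of all genes), with a median of -0.40: bab2, a gene of the distal leg, and al, which the wing list holds too. The calls of al, nkd and bab2 were lost without heterozygous msl-2 replicate 1 and without replicate 2. Ecdysone response (0 of 25, median -0.41), glycolysis (0 of 13), and genes of the fourth chromosome (0 of 28) held no called member, and in oxidative phosphorylation COX6B was the 1 called of 31 (lower).

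In each of the remaining lists up to 3 members passed, where 2.44% of all genes were higher and 3.35% lower. Of X genes alone 14.5% were lower, and every member called lower in these lists lies on the X except b. In the cell cycle list RnrL was higher and CycD lower of 32, and in the list of chromatin partners of dosage compensation Sxl was the 1 lower of 15, which also made it the 1 lower of 7 in sex determination. Of 27 autosomal pericentric genes, Marf1 and Snap25 were higher. Marf1 was at 23.4 to 67.2 CPM in mutants against 2.78 to 5.998 CPM in controls, and Snap25, a SNARE protein gene, at 19.7 to 54.2 against 1.04 to 4.41 CPM. Both calls were lost without heterozygous mle replicate 1, which leaves that group 1 library. Heterozygous mle replicate 2 was low as well, at 4.59 CPM for Marf1 and 3.61 CPM for Snap25. Of 10 cuticle genes Cpr47Ec was higher and obst-A lower, of 9 immunity genes Dif, an NF-kappaB factor, was higher, and of 3 genes on the Y none was called. Of 16 pigment genes w, rb and b were lower. w, the white gene, was at 1.17 to 3.65 CPM in mutants and 57.7 to 81.0 CPM in controls (-5.14 ± 0.32 and -5.09 ± 0.33, adjusted p = 1.23e-06 and 3.66e-06), and overlaps kirre. Lists for other cell types held few calls. Of 12 genes of adult muscle precursors Him and rst were lower, of 7 germline genes stwl was higher, and none was called of 17 larval muscle (median 0.59), 11 fat body, 14 hemocyte, 9 trachea, 16 neuron and glia, 2 salivary gland and 4 gut genes. The larval muscle median lay above that of all genes although no member passed.

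A comparison that shares no library with this one was msl-1 mutants against heterozygous msl-1 replicates 1 and 3, within a fit of 20 libraries. There 1037 genes were higher (10.8%) and 1432 lower (15%). Of the 207 autosomal genes higher in roX1 roX2 mutants 164 were also higher in msl-1 mutants (79.2%, where 12.1% of autosomal genes were), and 1 was lower. Of the 93 autosomal genes lower in roX1 roX2 mutants 72 were also lower (77.4%, against 12.5%), and 1 was higher. The shared genes made up 17.3% and 7.36% of the autosomal lists of the msl-1 comparison. Of the 217 X genes lower in roX1 roX2 mutants, 103 were lower in msl-1 mutants (47.5%, beside 28.5% over the whole X). The heterozygous msl-1 discs carried the same balancer as the controls used here, so the balancer is contrasted with its absence in both comparisons.

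**Figure D5:**
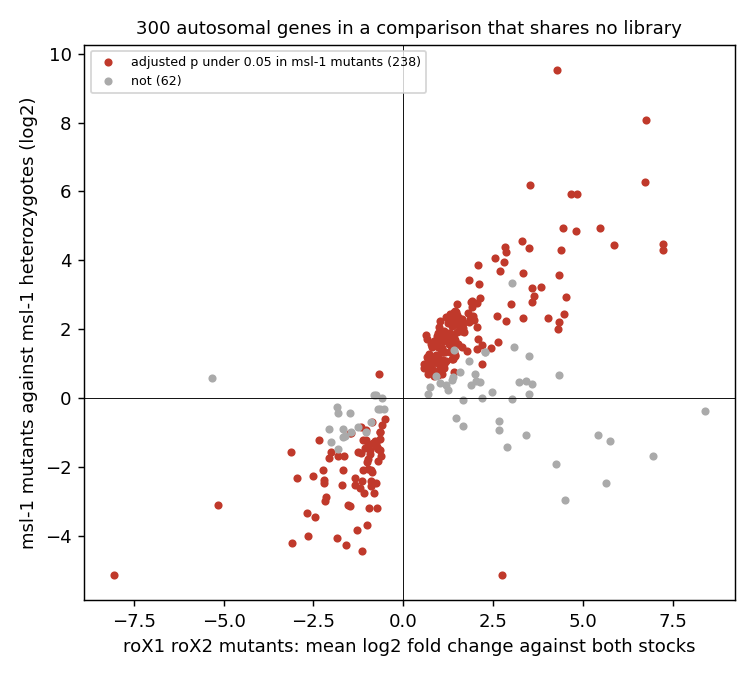
The 300 autosomal genes called against both stocks, with the mean of the 2 log2 fold changes of roX1 roX2 mutants (horizontal) and the log2 fold change of msl-1 mutants against msl-1 heterozygotes (vertical). The groups on the 2 axes share no library, but the fit behind the vertical axis includes the libraries of the horizontal axis. The 238 marked genes passed in msl-1 mutants too, and most lie at the upper right and lower left.

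The levels of the stress genes in the other mutants were as follows. Xrp1 was at 767 to 1144 CPM in msl-2, 1413 to 1750.0 in mle and 1472 to 1578 in msl-1 mutants, each above the 307 to 552 CPM of the 8 heterozygous libraries. Ku80 was at 38.5 to 63.5 CPM in msl-2, 65.6 to 88.1 in mle and 121 to 159 in msl-1 mutants, and the roX1 roX2 mutants, at 118 to 129, lay above the msl-2 and mle mutants and overlapped the msl-1 mutants. GstE6 was at 16.5 to 73.6 CPM in msl-2, 46.4 to 166 in mle and 187 to 220.3 in msl-1 mutants. The msl-2 and mle mutants have the same controls as the roX1 roX2 mutants, so these values are given side by side only. The heterozygous libraries carry the balancer and the mutant titles name none, so MSL genotype and balancer cannot be told apart here.

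A few genes were called in roX1 roX2 discs against every other group. In the fit of 20 libraries, without heterozygous msl-1 replicate 2 and chosen after seeing the data, 21 genes were called higher (0.22%) and 5 lower (0.0523%) than each of the other 6 groups. Of these, 19 higher and all 5 lower genes were also among the 233 and 320. With the library left out put back, 13 of the 19 had all 3 roX1 roX2 mutants above all 18 other libraries, and pon, CG11695 and CR40190 had them below all 18. Those lower included roX1 and CG11695, together with CR40190, pon and Ubi-p5E. pon, the partner of Numb in asymmetric cell division, was at 5.63 ± 0.345 CPM (SD, n = 3) against 46.5 ± 7.07 (SD, n = 3) in heterozygous msl-2 and 43.6 ± 0.0195 (SD, n = 2) in heterozygous mle discs. It was at 31.8 to 47.0 CPM in msl-2, 20.1 to 23.4 in mle and 12.5 to 20.2 in msl-1 mutants, and was called lower in mle and msl-1 mutants against their own controls as well. Ubi-p5E, a polyubiquitin gene, was at 41.3 ± 4.32 CPM (SD, n = 3) against 141 ± 20.8 (SD, n = 3) and 127 ± 18.0 (SD, n = 2). It was at 83.5 to 95.1 CPM in msl-2, 60.4 to 70.9 in mle and 123 to 161 in msl-1 mutants, was called lower in msl-2 and mle mutants against their own controls, and was at 27.2 CPM in heterozygous msl-1 replicate 2, below the roX1 roX2 mutants. roX1 itself reached down to 60.4 CPM in mle mutants, within the range of the roX1 roX2 mutants. Those higher included Reepl1 and Kmn1 next to roX2, and several that lie next to each other elsewhere. sick, a gene linked to actin regulation, was at 470.1 ± 164 CPM (SD, n = 3) against 63.4 ± 16.2 (SD, n = 3) and 86.5 ± 26.9 (SD, n = 2), and snRNA:U4:38AB, which lies within it, was higher as well. CR44316 is joined by its neighbour mIF3, a mitochondrial translation factor gene (2R, 12321238 to 12322797), at 341 ± 170.1 CPM (SD, n = 3) against 30.9 ± 2.44 (SD, n = 3) and 25.8 ± 1.70 (SD, n = 2). On 3L, CR42755, CG11726 and CG44362 lie between 11382808 and 11397865 and were all higher. The spread among the 3 mutants was wide in sick, mIF3 and CG31601, yet all 3 lay above the other 18 libraries, which reached 207, 35.9 and 38.3 CPM. OtopLa, Erk7 and CG1889 did not separate in this way, since heterozygous msl-1 replicate 2 was at 63.9, 24.0 and 12.0 CPM. That library had the lowest total count of the study.

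Neighbours within 10 kb called in the same direction were counted. Of the 207 autosomal genes that were higher 68 had one (32.9%), where 10.4% of all autosomal genes tested had a neighbour called higher. Of the 93 that were lower 10 had one (10.8%, against 4.43%), and of the 217 X genes that were lower 124 had one (57.1%, against 47.6%). Reads shared between overlapping genes can contribute to such pairs where counting did not use strand, and their part was not tested.

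Genes were left out by the requirement for both stocks where 1 contrast missed the threshold: 732 were called against heterozygous msl-2 only and 266 against heterozygous mle only. Of all genes tested, 58 were called between the stocks themselves, and 4 of these passed the requirement. Among the 5 with the smallest adjusted p between stocks were CG32373, CG4210 and sut2. CG32373 was at 55.7 to 68.6 CPM in mutants, near the 71.7 and 88.2 CPM of heterozygous mle discs and far above the 4.71 to 5.96 CPM of heterozygous msl-2 discs. CG4210 showed the opposite, with 19.2 to 27.6 CPM in mutants, 30.6 to 37.0 in heterozygous msl-2 and 1.31 and 1.36 in heterozygous mle discs. sut2, a sugar transporter gene, was at 0.912 to 1.51 CPM in mutants and 1.97 to 2.73 in heterozygous mle discs but 35.4 to 49.1 in heterozygous msl-2 discs. In each of these 3 genes the size of the difference from the mutants is set by the choice of control stock.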

How the data were processed

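The values deposited are raw counts of reads for each FlyBase gene and library, not normalised. Per the submitters' processing notes, STAR 2.6.1b and featureCounts (Subread 1.6.1) were used with dm6 or BDGP6; how strand was treated is not given in the sources used here. Per the labels' protocols, RNA was purified from TRIzol and a TruSeq Stranded mRNA kit was used. Genes were matched by identifier to the reference annotation of dm6, which left 306 of 17558 unmatched (5.53% of counts); these stayed in the tests and out of counts by chromosome.

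The 8 libraries were fitted with edgeR 4.0.16 (R 4.3.3, robust quasi-likelihood, 1 mean per group, filterByExpr, TMM factors from genes of 2L, 2R, 3L and 3R), with Benjamini-Hochberg adjustment over 9560 genes. Standard errors were derived from that test, as the size of the log2 fold change over the square root of its F value. They are approximate where a group has few reads, as in Reepl1 and Erk7, each with 1 read in heterozygous msl-2 discs. CPM use the same scaling as the fit. The fit was tested on simulated data. X values per library used log2 CPM with a prior count of 2. A list's median is that of the mean of both log2 fold changes. Counting intervals (95%) and floors of 3 counts cover counting error only.

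The genes named were those of the MSL complex, the 5 X-linked and 5 autosomal genes with the largest change in each direction (at least 5 CPM, groups apart), up to 4 called members per list, and 5 genes that differ most between control stocks. Neighbours of the roX genes, and genes that differ from all groups, were chosen after their values were seen. Members, lists and controls were chosen with earlier results of these data known. Other scalings, filters, fits, DESeq2 1.42.0, a replicate block and leaving out each library were tried.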

Additional observations from a re-analysis of the deposited data

Results flagged for a closer look

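In the 4 msl-2 mutant libraries, a group that serves only for side-by-side levels here, 1 library lay apart from the others in 7 of the 63 genes named. The gap to the nearest library was 0.8294 of the group's range for mof (replicate 4), 1 for Reepl1 (replicate 1, the only library with a read), 0.841 for al, 0.898 for bab2, 0.863 for COX6B and 0.876 for RnrL (replicate 3 in each), and 0.883 for Cyp6d2 (replicate 2). Chance flags about 1 in 20 groups, and the other groups, with 3 libraries or fewer, could not be looked at in this way.

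GstD3, a glutathione transferase gene (3R, 12373068 to 12373813), was higher than both stocks by unlike amounts. It was at 34.4, 50.2 and 31.9 CPM in roX1 roX2 mutants, at 0.588 to 0.794 CPM in heterozygous msl-2 and at 17.2 and 23.3 CPM in heterozygous mle discs. The log2 fold change was 5.74 against the first stock and 0.94 against the second, a difference of -4.80 between them that is the difference between the control stocks.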

How the results depend on the processing

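Counts of genes higher and lower than both stocks (233 and 320) were 152 and 119 in a fit of all 21 libraries, 548 and 786 against the mean of both control groups, and 21 and 5 when calls against each of the other 6 groups were required. They ranged from 94 to 266 and from 60 to 370 when a library was left out, with the lowest counts without heterozygous mle replicate 1, and without mutant replicate 3 they were 143 and 170. Genes lower numbered 516 in a fit of 20 libraries, and 157 in that fit when also called against heterozygous msl-1 replicates 1 and 3. They numbered 173 without heterozygous msl-2 replicate 1 or 2. Calls against heterozygous msl-2 (1290) fell to 563 with 21 libraries and ranged from 616 to 1703 with a library left out; those against heterozygous mle (824) fell to 401 and ranged from 174 to 1046. Calls between control stocks (58) were 109 without a filter, 30 with 21 libraries, 126 with DESeq2 and 28 to 134 with a library left out. Without a filter on low counts, X minus autosome was -0.297 against either stock, and it was -0.392 against heterozygous mle with a CPM filter; with all 3 heterozygous msl-1 libraries added it was -0.273.

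Correlations between same-numbered libraries of different groups ran from -0.0357 to 0.413, and between libraries of different number from -0.413 to 0.411. The 2 heterozygous mle libraries mirror each other once their group mean is removed. These values therefore do not decide whether replicate numbers pair the libraries. With a replicate block 146 genes were higher and 185 lower, 477 were called against heterozygous mle and 225 between stocks, and X minus autosome was -0.51 against heterozygous mle and -0.472 against all controls.

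Of 2016 values for named genes under the alternatives, 1868 kept direction and call, 134 lost the call and 14 turned direction. The turns were of genes near 0 or without reads. msl-3 against heterozygous msl-2 (0.01) was -0.024 without a filter, -0.042 with a CPM filter, -0.039 with the block and -0.19 to 0.19 with a library left out. mle against heterozygous msl-2 (near 0) was 0.044 with TMM on all genes, 0.047 with DESeq2 factors, 0.046 with the DESeq2 test and -0.046 to 0.024 with a library left out. CR31054 against heterozygous mle was 0 to 2.30 with a library left out. The causes were not tested.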

Other observations

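Some genes separated the 8 heterozygous libraries, whose titles name CyO-GFP, from the 13 mutant libraries of all genotypes, whose titles do not. w was at 45.5 CPM or more in all 8 and at 3.65 CPM or less in all 13. The non-coding gene CR44701 (2L, 9887039 to 9887389) was at 7.94 to 15.8 CPM in the 8 and at 0 to 1.66 CPM in the 13. Arc1 showed the opposite, at 114.7 to 8555 CPM in the 13 and 5.45 to 69.5 CPM in the 8. Of the 233 genes called higher, 61 lay above in all 13 (26.2%, against 0.785% of all genes). Of the 320 called lower, 27 lay below (8.44%, against 0.554%). Without heterozygous msl-1 replicate 2, the library with the lowest total, 98 of the 233 lay above (42.1%, against 1.28% of all genes). Likewise 91 of the 320 then lay below (28.4%, against 1.98%). Among the 217 X genes called lower the count went from 6 to 58 (26.7%, against 6.54% of X genes). The calls rest on 8 of the same libraries, so part of this excess is built in. The 61 include Xrp1, Irbp18, Ku80, Irbp, mre11, rad50, RnrL, Gadd45, GstE6 and PEK, and the 27 include Sxl. The MSL genotype and the balancer cannot be told apart in these genes.

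Other genes followed the stock instead. CR31054 (3R, 27960768 to 27961476) was at 28.4 to 56.0 CPM in all 7 libraries of the msl-2 stock, mutant and heterozygous, and 1 read of it was counted in the other 14 libraries together. sordd2 was at 22.7 to 47.8 CPM in the msl-2 stock, had no read in the 9 libraries of the roX1 roX2 and msl-1 genotypes, and in mle mutants was at 16.6 and 18.1 CPM in replicates 1 and 3 and at 0 in replicate 2. Levels of such genes thus differ even between libraries of the same label.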
